A study of Mus musculus with 6 samples.

Results

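A set of 10 genes that are widely used to mark monocytes and macrophages was followed in RNA-seq of mouse blast crisis chronic myeloid leukemia (bcCML): Lyz2, Apoe, Cd68, F13a1, Mrc1, Adgre1, Vcam1, Axl, Hmox1 and Cd163. The 10 genes were taken by symbol from the 36083 genes of the table of values per library, and all 10 were found. KLS cells (c-Kit+, Lin-, Sca-1+ hematopoietic progenitors) of WT or Sdc1-/- mice on a B6 background had been infected with viruses carrying the fusion oncogenes BCR-ABL and NUP98-HOXA9, cells positive for both were transplanted, and Lin- bcCML cells were later sorted from the recipients' spleens. Both groups, WT (n = 3 libraries) and Sdc1-/- (n = 3 libraries), thus carry both oncogenes and differ in the Sdc1 genotype of the donor, Sdc1 being the gene of the heparan sulfate proteoglycan syndecan-1. The labels give NSG recipients, whereas the general methods of the study describe CD45.1 recipients. The age ranges that the methods and the reporting summary of the study give for its mice differ, both sexes were used, and age, sex, time point and number of animals were not found for these libraries in the sources used here. NSG mice lack mature lymphocytes but keep myeloid cells of their own, and the sort described for primary bcCML took cells positive for both virus markers before the lineage gate. A figure legend of the study calls the WT libraries technical replicates, so the SDs and p-values below measure the spread between these libraries and may hold no difference between mice.

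Monocytes are made in the bone marrow from myeloid progenitors, circulate, and can become macrophages in tissue. Macrophages engulf dying cells, microbes and old red cells, digest them in lysosomes, break down the heme, and pass on the cholesterol and iron. In the spleen, red pulp macrophages carry out much of this work, and myeloid leukemias often hold cells that carry part of the monocyte program. The lineage gate of the study included an antibody to CD11b, a surface integrin of monocytes, macrophages and neutrophils, and one to Gr1, so cells with high levels of these proteins were to be removed before RNA was made.

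The values are TPM (a level that takes account of transcript length) that the authors had rescaled between libraries, called rescaled TPM here. Their sums were at least 1048875 in each WT library and at most 951814 in each Sdc1-/- library, and the read depth is unknown. Sdc1 itself had 1.75, 1.21 and 1.51 rescaled TPM in WT, below the 3.85, 3.80 and 4.12 of those labelled Sdc1-/-. Per the study, the knockout allele disrupts the signal peptide, so that no mature protein reaches the cell surface. A level of Sdc1 RNA does not measure that loss and checks the labels in neither direction, so each group keeps the name that its label gives. The 4 Y-linked genes of the sex gene list were at most at 0.25 in every WT library and at 6.26 to 49.8 in the Sdc1-/- libraries, so sex and genotype cannot be told apart. Fold changes came from limma on log2(value + 1), in which 12155 genes whose mean reached 1 were tested, are given as Sdc1-/- minus WT, and understate the change of low genes. A gene was called at an adjusted p (Benjamini-Hochberg over all tested genes) under 0.05. Because the samples are bulk RNA, fewer cells of a type and less RNA per cell cannot be told apart.

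Lyz2, the most abundant of the 10 genes, has a near-identical neighbour, Lyz1, and reads may be split between both. The first 90 coding bases of both genes, from GENCODE M21 on GRCm38, are shown because of this likeness, with the bases that differ between them in capitals.
Lyz2: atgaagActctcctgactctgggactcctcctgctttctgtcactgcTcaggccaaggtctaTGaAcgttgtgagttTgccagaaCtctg
Lyz1: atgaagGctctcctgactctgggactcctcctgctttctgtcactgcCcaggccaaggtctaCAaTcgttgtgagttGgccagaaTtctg
Of the 444 coding bases of each gene, 422 were identical, and 7 of the 22 differences fall in the stretch shown. Of the 1286 different words of 31 bases in the Lyz2 transcripts, 422 (32.8%) also occur in Lyz1, so part of the Lyz2 reads cannot be assigned by sequence alone. Lyz1 was nevertheless listed at only 0.44, 0.21 and 0.29 in WT and 0.21, 0.28 and 0.24 in Sdc1-/-, and its ratio to Lyz2 was 0.0015 ± 0.00056 (SD, n = 3) in WT and 0.0021 ± 0.00024 (SD, n = 3) in Sdc1-/-. Such sharing was small in F13a1 (0.58% of words), Vcam1 (1.05%) and Cd163 (0.56%) and was 0 in the other 6 genes.

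The 250 bases before the transcription start are shown for the called genes that had an entry in the RefSeq promoter table (GRCm38.p6), on the gene's strand and 5′ to 3′, since Lyz2, Cd68 and F13a1 were lower and Apoe higher in Sdc1-/-. Capitals mark GAGGAA, or TTCCTC where it lies on the opposite strand, the core of the site known to be bound by PU.1 (the product of Spi1), a transcription factor of myeloid cells.
Lyz2, chr10:117282273-117282522, minus strand: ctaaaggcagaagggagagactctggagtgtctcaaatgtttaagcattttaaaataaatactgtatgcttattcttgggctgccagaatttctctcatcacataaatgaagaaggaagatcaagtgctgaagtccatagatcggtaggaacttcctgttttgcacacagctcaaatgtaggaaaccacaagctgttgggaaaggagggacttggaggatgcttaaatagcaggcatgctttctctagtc
Cd68, chr11:69666171-69666420, minus strand: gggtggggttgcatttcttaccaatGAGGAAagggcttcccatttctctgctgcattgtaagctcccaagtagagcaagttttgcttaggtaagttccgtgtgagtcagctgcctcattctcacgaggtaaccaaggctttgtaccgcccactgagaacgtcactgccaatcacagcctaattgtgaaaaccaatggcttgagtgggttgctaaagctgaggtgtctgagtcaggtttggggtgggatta
F13a1, chr13:37050245-37050494, minus strand: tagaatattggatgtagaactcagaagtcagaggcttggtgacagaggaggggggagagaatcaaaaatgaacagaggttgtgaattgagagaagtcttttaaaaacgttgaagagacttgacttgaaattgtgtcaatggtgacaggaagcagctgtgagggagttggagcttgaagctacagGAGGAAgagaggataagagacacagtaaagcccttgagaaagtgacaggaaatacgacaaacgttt
Apoe, chr7:19699189-19699438, minus strand: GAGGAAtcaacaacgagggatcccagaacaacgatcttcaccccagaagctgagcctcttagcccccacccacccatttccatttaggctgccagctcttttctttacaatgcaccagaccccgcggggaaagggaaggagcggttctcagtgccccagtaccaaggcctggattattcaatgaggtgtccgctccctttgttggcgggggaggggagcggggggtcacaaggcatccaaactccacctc
The word begins 225 bases before the start of Cd68, 66 bases before that of F13a1 and 250 bases before that of Apoe, and these letters are not in the Lyz2 window. Over both strands, 6 of the 10 start sites listed for 7 of the genes held it, Mrc1 with 3 matches, against 23.3% of all 32851 RefSeq promoter windows of that length. Further starts of Apoe and F13a1 are counted among the 10, which are thus not independent, and only the first listed start is shown. Start 2 of Apoe and start 2 of F13a1 held no match. Start 3 of Apoe, whose window overlaps that of start 2, held 1. A match describes the letters and is no binding site. Other forms of the site were not searched, so the lack of a match does not show that a site is missing.

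Of the 8 marker genes that passed the minimum mean, 5 were lower in Sdc1-/- (F13a1, Cd68, Adgre1, Lyz2 and Hmox1), 1 was higher (Apoe) and 2 were not called (Vcam1 and Axl). Among all 12155 genes tested, 31.3% were called lower and 29.3% higher by limma, 7374 genes in all. The WT mean was 1.56 to 4.95 times the Sdc1-/- mean in the 5 genes that were lower, and 3 of these were at least 2-fold lower on the log2(value + 1) scale, as were 2.92% of all tested genes. Mrc1 and Cd163 lay below the minimum mean and were not tested, but both were lower in every Sdc1-/- library than in any WT library. In all, the groups did not overlap in 8 of the 10 genes, and in 6 of the 8 tested, against 66.7% of all tested genes. The median log2 fold change of the 8 tested genes was -0.74, beside -0.0097 for all tested genes, whose interquartile range ran from -0.24 to 0.23.

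**Figure D1:**
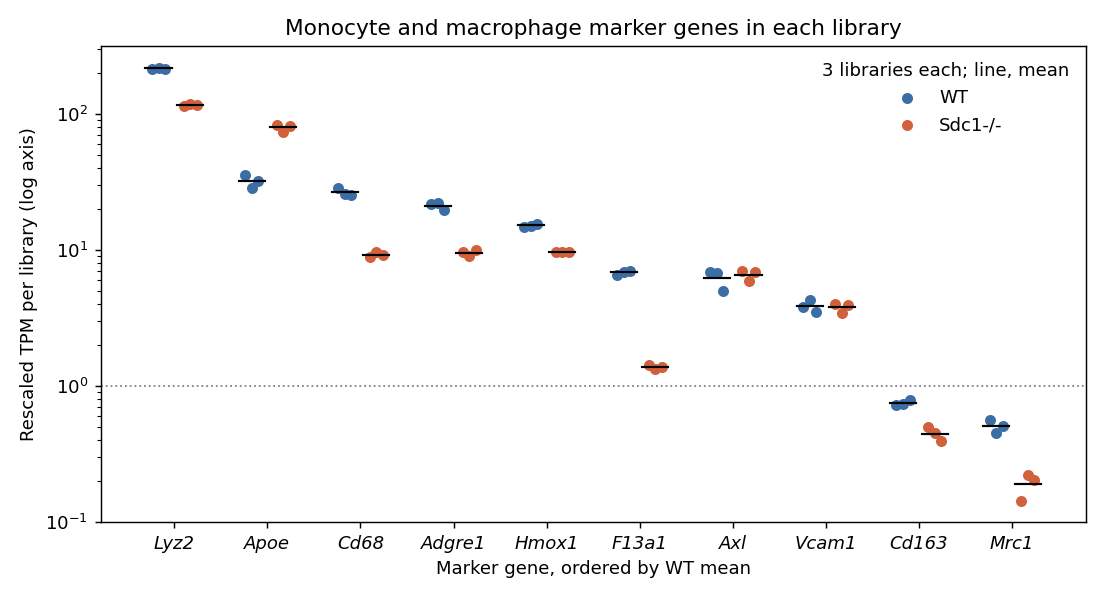
Rescaled TPM of each marker gene (log axis) in the 3 WT (blue) and 3 Sdc1-/- (red) libraries, with a line at each group's mean and a dotted line at the minimum mean of 1. The groups separate in 8 genes, with Apoe as the one that is higher in Sdc1-/-, and overlap in Vcam1 and Axl.

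The lysozyme gene Lyz2 (ENSMUSG00000069516, chr10:117277331-117282321, minus strand), whose product cuts bacterial cell walls and which is active in monocytes, macrophages and neutrophils, stood at 215, 219 and 213 rescaled TPM in WT. Its levels in Sdc1-/- were 115, 118 and 116. All Sdc1-/- libraries were thus far below all WT libraries, and the spread within each group was small. The means were 216 ± 2.93 (SD, n = 3) and 116 ± 1.32 (SD, n = 3), a log2 fold change of -0.89 (SE 0.027, limma adjusted p = 1.21e-06).

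Cd68 (ENSMUSG00000018774, chr11:69664213-69666153, minus strand) encodes a glycoprotein of the lysosome membrane that is abundant in macrophages. It had 28.6, 25.6 and 25.4 rescaled TPM in WT and 8.83, 9.61 and 9.24 in Sdc1-/-. The groups did not overlap, and the lowest WT library was above the highest Sdc1-/- library by more than the range within either group. The means of 26.5 ± 1.80 and 9.23 ± 0.39 (SD, n = 3 each) gave a log2 fold change of -1.43 (SE 0.058, limma adjusted p = 3.37e-06). Relative to Lyz2, Cd68 went from 0.123 ± 0.0087 in WT to 0.0794 ± 0.0025 in Sdc1-/- (SD, n = 3 each). In a two-sided exact permutation test this ratio gave p = 0.1, below which 3 libraries against 3 cannot go.

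F13a1 (ENSMUSG00000039109, chr13:36867178-37050244, minus strand), the gene of the coagulation factor XIII A chain, a transglutaminase made by monocytes, macrophages and megakaryocytes, had the largest fold change of the genes that were lower. Levels of 6.58, 6.91 and 7.04 rescaled TPM were found in WT and of 1.43, 1.33 and 1.39 in Sdc1-/-. The Sdc1-/- libraries were close to the minimum mean, and no library of one group came near the other group. The means were 6.84 ± 0.24 and 1.38 ± 0.048 (SD, n = 3 each), with a log2 fold change of -1.72 (SE 0.057, limma adjusted p = 1.74e-06). Since the pseudocount weighs on low values, the estimate reached -2.23 with the pseudocount of 0.1, and the WT mean was 4.95 times the Sdc1-/- mean on the scale of the values themselves.

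Adgre1 (ENSMUSG00000004730, chr17:57358691-57483527, plus strand) encodes F4/80, the adhesion receptor by which mouse macrophages are commonly stained. Its values were 21.6, 22.0 and 19.5 rescaled TPM in WT and 9.72, 9.0 and 9.92 in Sdc1-/-. Again every Sdc1-/- library lay below every WT library. Means of 21.0 ± 1.32 and 9.55 ± 0.48 (SD, n = 3 each) gave a log2 fold change of -1.06 (SE 0.060, limma adjusted p = 1.13e-05).

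Hmox1 (ENSMUSG00000005413, chr8:75093621-75100589, plus strand), the inducible heme oxygenase that breaks down heme from engulfed red cells, had 14.8, 15.0 and 15.6 rescaled TPM in WT. In Sdc1-/- it had 9.70, 9.65 and 9.72. These 3 libraries were almost equal, and all lay below the WT range. The log2 fold change was -0.59 (SE 0.039, limma adjusted p = 2.26e-05), from means of 15.1 ± 0.38 and 9.69 ± 0.039 (SD, n = 3 each). Hmox2, the constitutive heme oxygenase, was at 37.9 ± 2.62 in WT and 36.7 ± 1.53 in Sdc1-/- (SD, n = 3 each) and was not called (limma adjusted p = 0.53). The ratio of Hmox1 to Hmox2 was 0.401 ± 0.030 in WT and 0.264 ± 0.011 in Sdc1-/- (SD, n = 3 each), without overlap (two-sided exact permutation p = 0.1). With Hmox1 lower in every Sdc1-/- library and Hmox2 nearly level, this ratio had to separate and its p adds no support.

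Apoe (ENSMUSG00000002985, chr7:19696109-19699188, minus strand) was the exception among the called genes. It encodes apolipoprotein E, the lipoprotein component that macrophages secrete with cholesterol, and it is also made by other cell types. Its values were 35.4, 28.5 and 32.3 rescaled TPM in WT and 82.5, 74.1 and 81.6 in Sdc1-/-. Each Sdc1-/- library was more than 2-fold above the highest WT library. With means of 32.0 ± 3.45 and 79.4 ± 4.63 (SD, n = 3 each), the log2 fold change was 1.29 (SE 0.081, limma adjusted p = 1.89e-05), and the Sdc1-/- mean was 2.48 times the WT mean. Set against Lyz2 in the same library, Apoe was at 0.149 ± 0.017 in WT and 0.684 ± 0.047 in Sdc1-/- (SD, n = 3 each), a 4.6-fold difference (two-sided exact permutation p = 0.1). Apoe was higher and Lyz2 lower in every Sdc1-/- library, so this ratio had to separate and its p adds no support.

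Mrc1 (ENSMUSG00000026712, chr2:14229392-14332057, plus strand), the mannose receptor CD206, and Cd163 (ENSMUSG00000008845, chr6:124304656-124330527, plus strand), the receptor for hemoglobin bound to haptoglobin, are surface proteins of tissue macrophages. Mrc1 had 0.56, 0.45 and 0.51 rescaled TPM in WT and 0.14, 0.22 and 0.20 in Sdc1-/-. Cd163 had 0.73, 0.73 and 0.78 in WT and 0.50, 0.45 and 0.39 in Sdc1-/-. Both genes were thus below 1 in every library, and in both the groups did not overlap. When limma was run with no minimum mean, Mrc1 had a log2 fold change of -0.34 (adjusted p = 0.0021) and Cd163 one of -0.27 (adjusted p = 0.0051), values that the pseudocount of 1 makes small. The WT mean was 2.70 times the Sdc1-/- mean for Mrc1 and 1.68 times for Cd163.

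Vcam1 (ENSMUSG00000027962, chr3:116109949-116129688, minus strand) encodes an adhesion protein of red pulp and other resident macrophages, endothelium and stroma, which binds the integrin of α4 and β1 chains. It was found at 3.81, 4.31 and 3.49 rescaled TPM in WT and at 4.0, 3.46 and 3.95 in Sdc1-/-. The groups overlapped, with the lowest value of all in an Sdc1-/- library and the highest in a WT library. The log2 fold change was -0.019 (SE 0.084, limma adjusted p = 0.86), with a 95% interval from -0.22 to 0.18.

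Axl (ENSMUSG00000002602, chr7:25757273-25788705, minus strand) encodes a receptor tyrosine kinase through which macrophages bind and take up dying cells. Its values were 6.93, 6.80 and 4.99 rescaled TPM in WT and 6.96, 5.87 and 6.84 in Sdc1-/-. One WT library, replicate 3, lay below all others, and the groups overlapped. The log2 fold change was 0.071 (SE 0.12, limma adjusted p = 0.64), with a 95% interval from -0.21 to 0.36, and without that library the estimate was -0.060. The ratio of Axl to Vcam1 was 1.61 ± 0.20 in WT and 1.72 ± 0.023 in Sdc1-/- (SD, n = 3 each), values that overlapped (two-sided exact permutation p = 0.4).

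**Figure D2:**
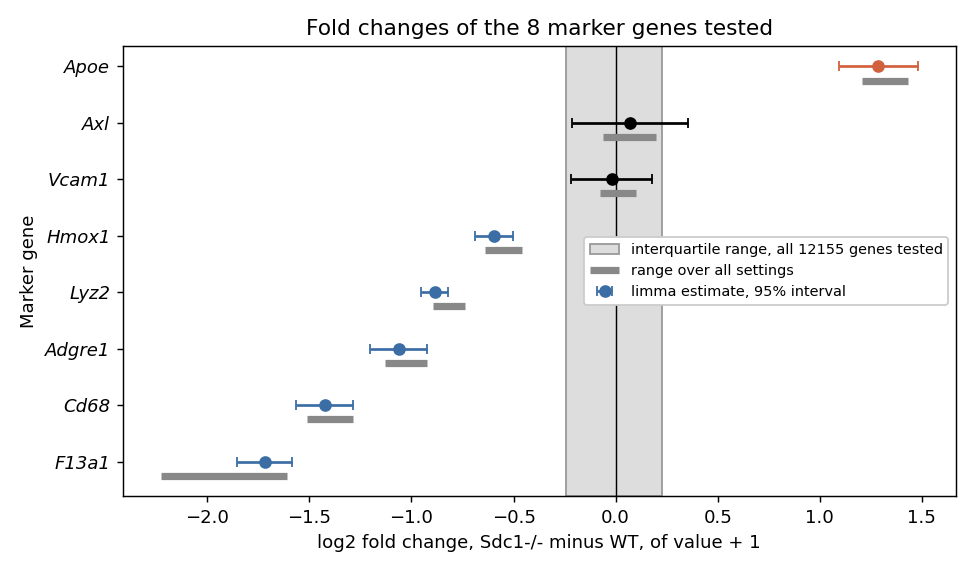
The log2 fold change of value + 1 (Sdc1-/- minus WT) of the 8 tested marker genes with its 95% interval, and below each a grey bar for the range over all alternative settings. The intervals of F13a1, Cd68, Adgre1, Lyz2 and Hmox1 lie below the interquartile range of all 12155 tested genes (-0.24 to 0.23), that of Apoe lies above it, and those of Vcam1 and Axl include 0.

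On the scale of levels per transcript length, the order of the 10 genes differed between the groups. In WT the order of the means was Lyz2, Apoe, Cd68, Adgre1, Hmox1, F13a1, Axl, Vcam1, Cd163 and Mrc1, and only the neighbours Apoe and Cd68, and F13a1 and Axl, overlapped in their ranges over the 3 libraries. In Sdc1-/- the order was Lyz2, Apoe, Hmox1, Adgre1, Cd68, Axl, Vcam1, F13a1, Cd163 and Mrc1, where the ranges of Hmox1, Adgre1 and Cd68 overlapped with their neighbours in this order. F13a1 thus stood level with Axl in WT and below both Axl and Vcam1 in Sdc1-/-.

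The summed level of the 10 genes was 323 to 334 rescaled TPM in WT and 231 to 239 in Sdc1-/-. Lyz2 made up 65.6% ± 1.12 of this sum in WT and 49.2% ± 1.48 in Sdc1-/- (SD, n = 3 each). The share of Apoe was 9.75% ± 0.99 in WT and 33.6% ± 1.35 in Sdc1-/- (SD, n = 3 each). Neither share overlapped between the groups (two-sided exact permutation p = 0.1 for each). For Apoe this outcome was fixed, since its level was higher and the sum lower in every Sdc1-/- library.

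**Figure D3:**
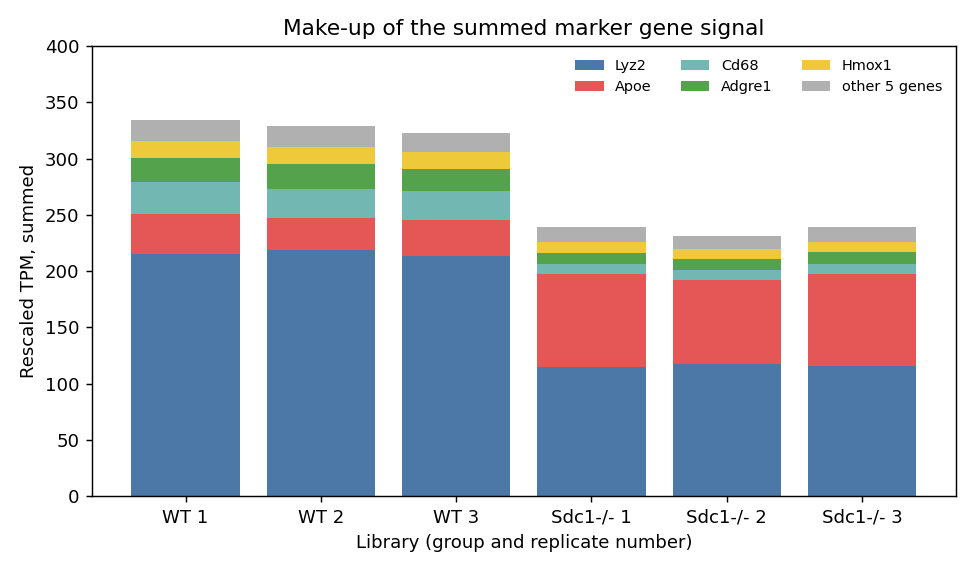
Stacked rescaled TPM of the marker genes in each of the 6 libraries, with Mrc1, F13a1, Vcam1, Axl and Cd163 combined as the other 5 genes. The sum lies at 323 to 334 in WT and 231 to 239 in Sdc1-/-, with a smaller Lyz2 part and a larger Apoe part in Sdc1-/-.

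The counts in this and the following gene lists stand beside all 12155 tested genes, of which 31.3% were called lower and 29.3% higher. Of 18 other genes for monocyte surface and secreted proteins, 15 were tested, 13 of which were lower and 2 higher in Sdc1-/-, with a median log2 fold change of -1.29. Chil3, a secreted chitinase-like protein and the most abundant of them, fell from 1478 ± 77.2 to 708 ± 21.3 rescaled TPM (SD, n = 3 each; limma adjusted p = 3.95e-06). Lgals3, which encodes galectin-3, had the largest fall on the log2(value + 1) scale, from 143 ± 2.54 to 38.5 ± 0.53 (SD, n = 3 each; limma adjusted p = 3.08e-07). The WT mean was 3.71 times the Sdc1-/- mean for Lgals3 and 6.22 times for Ms4a6c, named after its values were seen. Fn1, the gene of the matrix protein fibronectin, rose from 12.9 ± 0.52 to 17.2 ± 1.30 (SD, n = 3 each; limma adjusted p = 0.0013). Itgam, the gene of the CD11b protein used in the lineage gate, was at 23.3 to 24 in WT and 7.14 to 7.69 in Sdc1-/- and fell by 1.56 on the log2 scale (limma adjusted p = 9.68e-07). Its RNA was therefore present in cells sorted as Lin- in both groups.

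Among 17 transcription factors of monocytes and macrophages, 8 of the 11 tested were lower and 3 were not called by limma, with a median of -0.52. Spi1, whose product PU.1 binds the core searched for above, fell from 111 ± 2.35 to 59.4 ± 5.66 rescaled TPM (SD, n = 3 each), a log2 fold change of -0.90 (limma adjusted p = 3.80e-05). Spic, a factor of red pulp macrophages that is induced by heme, fell from 5.91 ± 0.71 to 1.60 ± 0.27 (SD, n = 3 each), a log2 fold change of -1.41 (limma adjusted p = 4.20e-05).

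Most of the 20 genes for resident and red pulp macrophages were low here, and 15 did not reach the minimum mean. The 5 that did were all lower in Sdc1-/-, with a median log2 fold change of -0.65. Of the other 15, 12 had a lower mean in Sdc1-/-, but several of these lay near 0 with overlapping groups. The share of lower means over all genes below the minimum mean was not computed. Selenop, which encodes a selenium transport protein, fell from 20.8 ± 0.47 to 13.9 ± 0.81 rescaled TPM (SD, n = 3 each), and C1qc, a chain of complement C1q, from 4.25 ± 0.25 to 0.99 ± 0.077 (SD, n = 3 each). The sum over the list was 44.3 to 45.8 in WT and 26.3 to 28.6 in Sdc1-/-. Clec4f, a marker of liver macrophages, was listed at 0 in all 6 libraries, and 6 genes of the list had a mean below 0.1.

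The partners of Axl in the uptake of dying cells did not move one way. Of 16 genes, 9 were tested. Against 29.3% higher and 31.3% lower among all tested genes, 2 were higher, 5 lower and 2 not called, with a median of -0.16. Pros1, the gene of protein S, a bridging ligand of this receptor family, rose from 2.80 ± 0.42 to 4.97 ± 0.43 rescaled TPM (SD, n = 3 each; limma adjusted p = 0.0010). Lrp1, an endocytic receptor, fell from 2.09 ± 0.13 to 1.00 ± 0.12 (SD, n = 3 each; limma adjusted p = 4.79e-04). Scarb1, the scavenger receptor with the highest mean of the list, was at 37.0 ± 0.77 and 33.0 ± 0.54 (SD, n = 3 each) and was called lower (limma adjusted p = 0.0053), a call lost when every library was scaled to the same sum. The related receptors Tyro3 and Mertk and the ligand Gas6, named after their values were seen, were below 0.3 in every library.

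Beside Hmox1, 18 of 19 genes of heme, iron and oxidative stress were tested. Against 29.3% higher and 31.3% lower among all tested genes, 3 were higher, 8 lower and 7 not called, with a median of -0.12. Fth1, the heavy chain of the iron store ferritin, was both the most abundant and the one with the largest fall, from 1708 ± 15.0 to 969 ± 20.5 rescaled TPM (SD, n = 3 each), a log2 fold change of -0.82 (limma adjusted p = 2.23e-06). Fth1 has processed pseudogenes that may share its reads, and its value is uncertain to that extent. The largest rise was in Mafg, a partner of NRF2 and BACH1 at stress response genes, from 15.7 ± 0.66 to 19.9 ± 1.31 (SD, n = 3 each; limma adjusted p = 0.0023).

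The list for lipoprotein and cholesterol handling, the pathway of Apoe, held 4 genes that were higher, 10 that were lower and 1 not called among 15 tested of 19, with a median of -0.29. Abcg1, a cholesterol exporter, rose from 7.09 ± 0.13 to 10.5 ± 0.38 rescaled TPM (SD, n = 3 each; limma adjusted p = 1.05e-04). Plin2, which coats lipid droplets, fell from 106 ± 8.84 to 50.0 ± 1.81 (SD, n = 3 each; limma adjusted p = 1.48e-05). Apoc2, which lies in the same gene cluster as Apoe and activates lipoprotein lipase, had 1.98, 6.20 and 6.16 in WT and 1.85, 0.75 and 0.53 in Sdc1-/-. WT replicate 1 was near the Sdc1-/- range, and the fall of Apoc2 (log2 fold change -1.44, limma adjusted p = 0.015) was no longer called without the minimum mean (adjusted p = 0.054). Apoc1, the next neighbour of Apoe, named after its values were seen, was below the minimum mean with 0.12, 0.32 and 0.41 in WT and 0.74, 0.99 and 0.83 in Sdc1-/-, and the groups did not overlap.

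In the lysosome membrane list, to which Cd68 is related, 9 of 11 tested genes were lower and 2 higher, with a median of -0.47. Cd63, a tetraspanin of late endosomes, fell from 430 ± 10.4 to 314 ± 8.43 rescaled TPM (SD, n = 3 each), and Gpnmb, a membrane glycoprotein of phagocytes, from 5.53 ± 0.020 to 1.05 ± 0.089 (SD, n = 3 each). Mcoln1, a calcium channel of lysosomes, rose from 10.9 ± 0.25 to 14.1 ± 1.62 (SD, n = 3 each; limma adjusted p = 0.0077).

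Scavenger and lectin receptors, the class of Mrc1 and Cd163, were lower in 9, higher in 1 and not called in 1 of 11 tested genes, with a median of -0.41. Clec10a, a lectin for galactose sugars, fell from 140 ± 5.36 to 57.5 ± 3.37 rescaled TPM (SD, n = 3 each; limma adjusted p = 3.08e-06). Scarf1, a scavenger receptor first described in endothelium, rose from 0.70 ± 0.13 to 3.78 ± 0.28 (SD, n = 3 each), a log2 fold change of 1.5 (limma adjusted p = 1.38e-05).

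Genes of coagulation and transglutaminases, related to F13a1, were lower in 10, higher in 1 and not called in 1 of 12 tested, with a median of -0.76. F7, coagulation factor VII, fell from 4.31 ± 0.34 to 0.41 ± 0.036 rescaled TPM (SD, n = 3 each), a log2 fold change of -1.91 (limma adjusted p = 3.16e-06). F2r, the thrombin receptor, fell from 194 ± 3.33 to 149 ± 1.67, whereas Procr, the receptor of protein C, rose from 0.78 ± 0.079 to 1.80 ± 0.16 (SD, n = 3 each).

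Receptors of Vcam1 and related adhesion genes were lower in 5, higher in 1 and not called in 2 of 8 tested, with a median of -0.17. Among all tested genes, 31.3% were lower and 29.3% higher. Itgb1, the β1 integrin chain, was at 117 ± 2.45 and 109 ± 2.87 rescaled TPM (SD, n = 3 each). It was called lower (log2 fold change -0.11, limma adjusted p = 0.028), but the estimate was 0.042 when every library was scaled to the same sum. Itga9, the α9 integrin chain, fell from 2.15 ± 0.40 to 0.69 ± 0.13, and Icam2, an adhesion ligand of leukocyte integrins, rose from 59.2 ± 2.95 to 93.1 ± 2.09 (SD, n = 3 each).

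**Figure D4:**
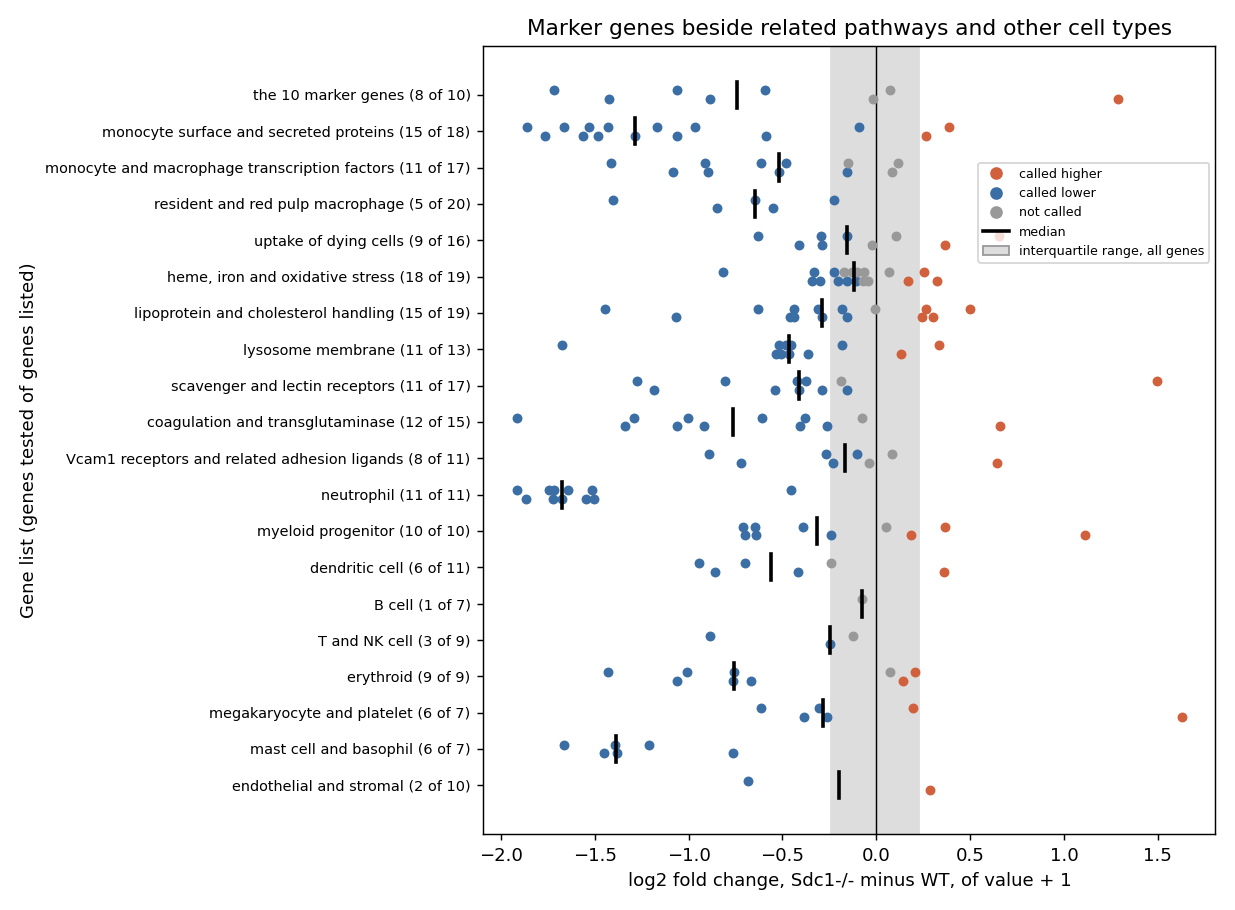
The log2 fold change of value + 1 (Sdc1-/- minus WT) of each tested gene, with 1 row per gene list, a bar at each list's median and grey shading for the interquartile range of all tested genes. The median of the marker genes is -0.74, beside -1.29 for monocyte surface and secreted proteins and -1.67 for neutrophil genes.

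Genes of several other cell types moved with the marker genes. All 11 neutrophil genes were lower, with a median of -1.67 and a summed level of 13167 to 14105 rescaled TPM in WT and 4730 to 4867 in Sdc1-/-. S100a8, a calcium-binding protein of neutrophils and monocytes, fell from 5279 ± 394 to 1859 ± 85.4, and Mmp9, a secreted protease, from 12.1 ± 0.72 to 2.49 ± 0.59 (SD, n = 3 each). All 6 tested genes of mast cells and basophils were lower as well, with a median of -1.39 and a sum of 427 to 435 in WT and 157 to 160 in Sdc1-/-. Prss34, a mast cell and basophil protease, fell from 146 ± 3.94 to 52.9 ± 2.27 rescaled TPM, and Ms4a2, a chain of the IgE receptor, from 74.7 ± 3.37 to 23.0 ± 1.95 (SD, n = 3 each). Their part in the levels of the marker genes was not tested, and Lyz2 is also expressed by neutrophils.

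Of the 10 myeloid progenitor genes, 6 were lower, 3 higher and 1 not called, with a median of -0.32 and sums of 1791 to 1911 in WT and 1320 to 1336 in Sdc1-/-. Ms4a3, a gene of granulocyte and monocyte progenitors, fell from 445 ± 11.7 to 272 ± 7.5 rescaled TPM, and Sox4, a transcription factor of immature cells, rose from 0.53 ± 0.036 to 2.33 ± 0.24 (SD, n = 3 each). Dendritic cell genes were lower in 4, higher in 1 and not called in 1 of 6 tested, with a median of -0.56. Their sums were 151 to 159 in WT and 147 to 150 in Sdc1-/-. Bst2, a membrane protein induced by interferon, rose from 74.7 ± 3.77 to 96.3 ± 2.38, and Cd74, the invariant chain of MHC class II, fell from 21.4 ± 1.11 to 10.6 ± 0.28 rescaled TPM (SD, n = 3 each). Erythroid genes were lower in 6, higher in 2 and not called in 1 of 9. Their median was -0.76, beside -0.74 for the marker genes. Their sums were 9586 to 10294 in WT and 5369 to 5773 in Sdc1-/-, although TER119 was part of the lineage gate. The globin genes Hbb-bt and Hba-a2, which have near-identical copies and are uncertain for that reason, fell from 3410 ± 137 to 2006 ± 61.3 and from 895 ± 102 to 330.4 ± 7.62, and Klf1, an erythroid transcription factor, rose from 49.1 ± 3.22 to 56.8 ± 1.18 rescaled TPM (SD, n = 3 each).

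Megakaryocyte and platelet genes, which also bear on F13a1, were lower in 4 and higher in 2 of 6 tested, with a median of -0.28. Their sums of 499 to 527 in WT and 513 to 526 in Sdc1-/- overlapped. Pf4, a platelet chemokine, rose from 266 ± 4.14 to 305 ± 14.4 rescaled TPM, and Vwf, von Willebrand factor, from 4.14 ± 0.66 to 14.8 ± 0.66 (SD, n = 3 each). Gp1bb, a chain of the platelet receptor for this factor, had the largest fall, from 19.5 ± 0.59 to 12.5 ± 0.83 (SD, n = 3 each), a log2 fold change of -0.61 (limma adjusted p = 9.51e-05). Only 1 of 7 B cell genes (Cd79b, not called) and 3 of 9 T and NK cell genes (2 lower, 1 not called) reached the minimum mean. Cd79b, a chain of the B cell receptor, was at 2.29 ± 0.34 and 2.12 ± 0.30 rescaled TPM, while Nkg7 and Gzma, both of cytotoxic granules, fell from 340.3 ± 5.57 to 286 ± 7.07 and from 1.60 ± 0.12 to 0.40 ± 0.089 (SD, n = 3 each). The endothelial and stromal list, whose cell types can also express Vcam1, had 2 of 10 genes above the minimum mean, 1 higher and 1 lower, with sums of 26.9 to 28.3 in WT and 28.3 to 28.9 in Sdc1-/-. Its highest gene, Col1a2, a collagen chain, rose from 18.8 ± 0.36 to 23.2 ± 0.047 (SD, n = 3 each). Col1a2 and Pdgfrb made up most of these sums, while 4 genes of the list, Col1a1 among them, had a mean below 0.1. Pdgfrb and Col1a1 are named after their values were seen. The part of these cell types in the results was not tested.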

How the data were processed

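RNA-seq was measured in 6 libraries, 3 labelled WT and 3 labelled Sdc1-/-, grouped by their titles. The authors deposited a signal per gene and library: TPM from kallisto, summed per gene and rescaled between libraries. The submitters' processing notes list kallisto, sleuth 0.30.0 and mm10, the UCSC name of GRCm38. The transcript annotation is not given in the sources used here. Of the 36083 gene identifiers, 35454 matched a symbol in GENCODE M21, which also gave the positions. A second table, with the authors' own test statistics and effect sizes, was not used. The depth of the libraries is unknown, and no interval for counting error can be given.

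Groups were compared on log2(value + 1) by limma 3.58.1 in R 4.3.3 (lmFit, eBayes with trend), in a model with no term but group. Genes had to reach a mean of 1 over the 6 libraries, which 12155 did, and p-values were adjusted over them by Benjamini-Hochberg, at a threshold of 0.05. Ratios and sums were compared by two-sided exact permutation in scipy 1.17.1. Tables were made with pandas 2.3.3 and numpy 2.4.6 in Python 3.11.15, and plots with matplotlib 3.10.9. The marker genes and gene lists were chosen with earlier results of these data known. The rule named the 10 marker genes and, of each list, the gene with the highest mean and the called genes with the largest rise and fall, and the highest gene only where fewer than 3 genes were tested. Some lists share genes. Data were simulated for this comparison with 12155 genes and independent normal noise, and 200 genes were given a log2 fold change of 1, up or down. Of these, limma called 198 (99.0%), along with 14 unchanged genes, and with no gene changed it called 0. The 200 were drawn from higher-expressed genes only, so this recovery does not cover low genes such as F13a1 and Vcam1. Far fewer genes were changed than were called in the data. Alternatives used another pseudocount, minimum mean or scaling, no variance trend, the replicate number as a block, or all libraries but 1.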

Additional observations from a re-analysis of the deposited data

How the results depend on the processing

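Apoe was called higher, and Lyz2, Cd68, Adgre1 and Hmox1 lower, under each of the 15 alternatives, as was F13a1 under the 14 in which it was tested. The log2 fold changes ranged over all settings from -0.90 to -0.74 for Lyz2, from 1.21 to 1.43 for Apoe, from -1.51 to -1.29 for Cd68, from -2.23 to -1.61 for F13a1, from -1.13 to -0.92 for Adgre1 and from -0.64 to -0.46 for Hmox1. The number of marker genes called was 6 of 8 tested, but 8 of 10 without a minimum mean and 5 of 6 with a minimum of 5. Over all genes, 7374 of 12155 were called, 8022 of 24714 without a minimum mean and 5907 of 8966 with a minimum of 5. When 1 library was left out, 6463 to 6960 genes were called. When every library was scaled to the same sum, 7657 genes were called, 5290 of them higher and 2367 lower (30.9% lower, against 51.7%), the median of all genes was 0.12 in place of -0.0097, and Vcam1 (0.099), Itgb1 (0.042) and Cd79b (0.024) changed sign without being called. With 1 library left out at a time, Vcam1 ran from -0.076 to 0.045, the sign changing without WT replicate 2 (0.045) and without Sdc1-/- replicate 2 (0.034). Axl ran from -0.060 (without WT replicate 3) to 0.14, and Cd79b from -0.14 to 0.0023 (without WT replicate 2). The cause was not tested. The replicate numbers did not pair the libraries: deviations of same-numbered libraries correlated at 0.15, -0.0083 and 0.018, and not every library correlated best with its own number. With the replicate block, 7624 genes and the same number of marker genes (6) were called. The depth is unknown, so how far it limits Mrc1 and Cd163 cannot be stated.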
